A study of Mus musculus with 19 samples.

Results

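The genes described here carry out cholesterol synthesis and its control in regulatory T cells (Tregs): Hmgcs1, Idi1, Fdps, Fdft1, Sqle and Cyp51 encode enzymes of the pathway, and Srebf2 and Insig1 encode parts of the machinery that senses sterols. They were taken by symbol, as 8 of the 24982 genes in the table of read counts, and all 8 passed the filter on low counts that left 11464 genes for testing. The cells were CD4+FoxP3-GFP+ Tregs sorted into CD44high and CD44low fractions from the lymph nodes of mice that had a burn injury or were uninjured (sham treated). There were 4 libraries of CD44high uninjured, 5 of CD44low uninjured, 4 of CD44high injured and 6 of CD44low injured Tregs, 19 in all. Every mouse, controls included, was of the Foxp3DTR strain, in which a diphtheria toxin receptor fused to GFP is made from the Foxp3 gene, and the GFP was the marker used for the sort. The mice were 8 to 16 weeks old, the injury was a 90 °C water burn of 20% of the body surface for 9 seconds, and axillary, brachial and inguinal nodes draining the site were taken on day 7. RNA came from 50000 cells a sample. The labels do not say whether a sample is a single mouse or a pool, so p-values measure the spread between these samples, which may be technical. Among the CD44low injured libraries, 3 carry a second number in their label (1_2, 4_2 and 5_2) that the labels leave unexplained.

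Cholesterol is built from acetyl-CoA through mevalonate to isoprenoid units, which are joined to farnesyl pyrophosphate, then to squalene, and are finally closed and trimmed to the sterol. In that order HMGCS1, IDI1, FDPS, FDFT1, SQLE and CYP51 each carry out a step. When membrane sterol is low, the transcription factor SREBP2, encoded by Srebf2, is carried from the endoplasmic reticulum to the Golgi, cut free and sent to the nucleus, where it switches on the synthesis enzymes through sterol regulatory elements. INSIG1 holds the precursor back when sterol is plentiful, and its own gene is a target of the same factor. Dividing T cells need new membrane, and the isoprenoid branch of the pathway also supplies lipid anchors for signalling proteins.

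The promoters are shown because these genes share a regulator, and because RefSeq promoter windows (GRCm38.p6, from 250 bases before to 50 after the start site) exist in the table used for 5 of the 8 genes: Hmgcs1, Idi1, Cyp51, Insig1 and Srebf2. Sqle, Fdft1 and Fdps had no entry there. The letters of a sterol regulatory element, TCACNCCAC, were searched on both strands. They were found exactly in 1 of the 5 windows, that of Hmgcs1, at 137 bases before the start, and in 1.24% of all 32851 windows. With at most 1 mismatch, 4 of the 5 windows held a match, against 24.2% of all windows. The CCAAT letters of the NF-Y box were in 5 of 5 windows (37.4% of all), the GGGCGG letters of the Sp1 box in 5 of 5 (35.7% of all), and the CACGTG letters of the E-box in that of Insig1 alone (7.15% of all). In these windows no match to another motif overlapped a sterol match, and each match is a description of letters, not a bound site. The bases before the start site are printed for the gene with the exact match and for the 3 genes with a window that differed between CD44high and CD44low Tregs in at least 1 comparison below, in lower case, with matches to the sterol element of at most 1 mismatch in capitals. Hmgcs1 lies at chr13:119690101-119690350 on the plus strand, Cyp51 at chr5:4104698-4104947 on the minus strand, Srebf2 at chr15:82147019-82147268 on the plus strand and Idi1 at chr13:8885356-8885605 on the plus strand.
Hmgcs1: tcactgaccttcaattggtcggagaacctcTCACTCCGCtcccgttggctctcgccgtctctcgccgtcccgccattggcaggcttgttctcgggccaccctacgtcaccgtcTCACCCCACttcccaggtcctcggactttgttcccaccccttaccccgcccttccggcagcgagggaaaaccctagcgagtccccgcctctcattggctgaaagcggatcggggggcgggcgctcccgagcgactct
Cyp51: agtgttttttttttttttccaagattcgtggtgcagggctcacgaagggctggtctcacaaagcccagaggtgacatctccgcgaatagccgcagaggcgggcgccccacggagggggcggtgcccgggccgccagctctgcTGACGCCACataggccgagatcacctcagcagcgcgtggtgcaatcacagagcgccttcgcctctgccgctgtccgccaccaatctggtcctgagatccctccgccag
Srebf2: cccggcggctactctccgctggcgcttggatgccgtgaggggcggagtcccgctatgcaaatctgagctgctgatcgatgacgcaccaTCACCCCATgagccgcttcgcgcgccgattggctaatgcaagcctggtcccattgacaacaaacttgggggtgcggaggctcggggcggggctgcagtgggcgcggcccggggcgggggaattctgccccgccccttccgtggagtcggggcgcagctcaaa
Idi1: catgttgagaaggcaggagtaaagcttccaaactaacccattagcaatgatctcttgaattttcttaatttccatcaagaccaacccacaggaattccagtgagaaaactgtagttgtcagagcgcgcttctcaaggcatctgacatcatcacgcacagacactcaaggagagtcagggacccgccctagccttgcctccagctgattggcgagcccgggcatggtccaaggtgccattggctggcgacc
Hmgcs1 has a second, inexact word at 220 bases before the start, Cyp51 has TGACGCCAC at 108 before it, and Srebf2 has TCACCCCAT at 162 before it. Idi1 has none within these letters. In Insig1, not printed, the match lies on the opposite strand and reads ACACGCCAC. Among 14 further enzymes of the pathway, 13 had windows, 16 in all. None of the 16 held the exact letters, and 5 held them with at most 1 mismatch.

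Total counts ran from 5582234 to 9433610 a library, and no pair of libraries of the same group matched within sampling noise. Foxp3 was read in all 19 libraries, at 47.7 to 181 CPM (read counts relative to library size, with TMM factors). Cd44 followed the sort, with means of 595 CPM in CD44high and 133 CPM in CD44low uninjured Tregs and of 436 and 117 CPM in injured ones. Summed markers of macrophages and dendritic cells (8 genes, led by Lyz2) ranged from 68.0 to 144 CPM in CD44high uninjured, 87.4 to 237 in CD44high injured, 19.8 to 40.6 in CD44low uninjured and 35.0 to 152 in CD44low injured libraries, with 1 of the 8 at 0 in CD44high uninjured libraries. Summed proliferation genes (17, among them Mki67 and Top2a) ranged from 2870 to 3429 CPM in CD44high uninjured, 2361 to 2571 in CD44high injured, 731 to 826 in CD44low uninjured and 747 to 1022 in CD44low injured libraries. Both sets had higher means in CD44high than in CD44low libraries, and their part in the results below was not tested.

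Levels of the 8 genes were compared with each other per kilobase of exon. Srebf2 stood highest in each of the 4 groups, with means of 54.7 ± 5.83 CPM per kilobase (SD, n = 4) in CD44high uninjured and 73.6 ± 11.2 (SD, n = 5) in CD44low uninjured Tregs, and Idi1 stood lowest, with 2.45 ± 0.683 and 1.58 ± 0.411. Cyp51, the lanosterol demethylase, came after Srebf2 in CD44high uninjured Tregs at 29.4 ± 4.45 CPM per kilobase. Fdps, which makes farnesyl pyrophosphate, followed at 25.9 ± 2.27, within the SD of Cyp51. In CD44low uninjured Tregs this order was turned, with Fdps at 23.7 ± 5.37 and Cyp51 at 17.2 ± 3.71 CPM per kilobase. There Cyp51 lay beside Sqle (16.7 ± 4.91) and Hmgcs1 (15.7 ± 3.35), with differences smaller than their SDs. Insig1 and Fdft1 also did not separate beyond their spread in CD44high uninjured Tregs, at 10.6 ± 2.47 and 11.6 ± 0.428 CPM per kilobase. Fdps shares 1124 exon bases with another annotated model on its strand, and the part of this overlap in its level and place was not tested.

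**Figure D1:**
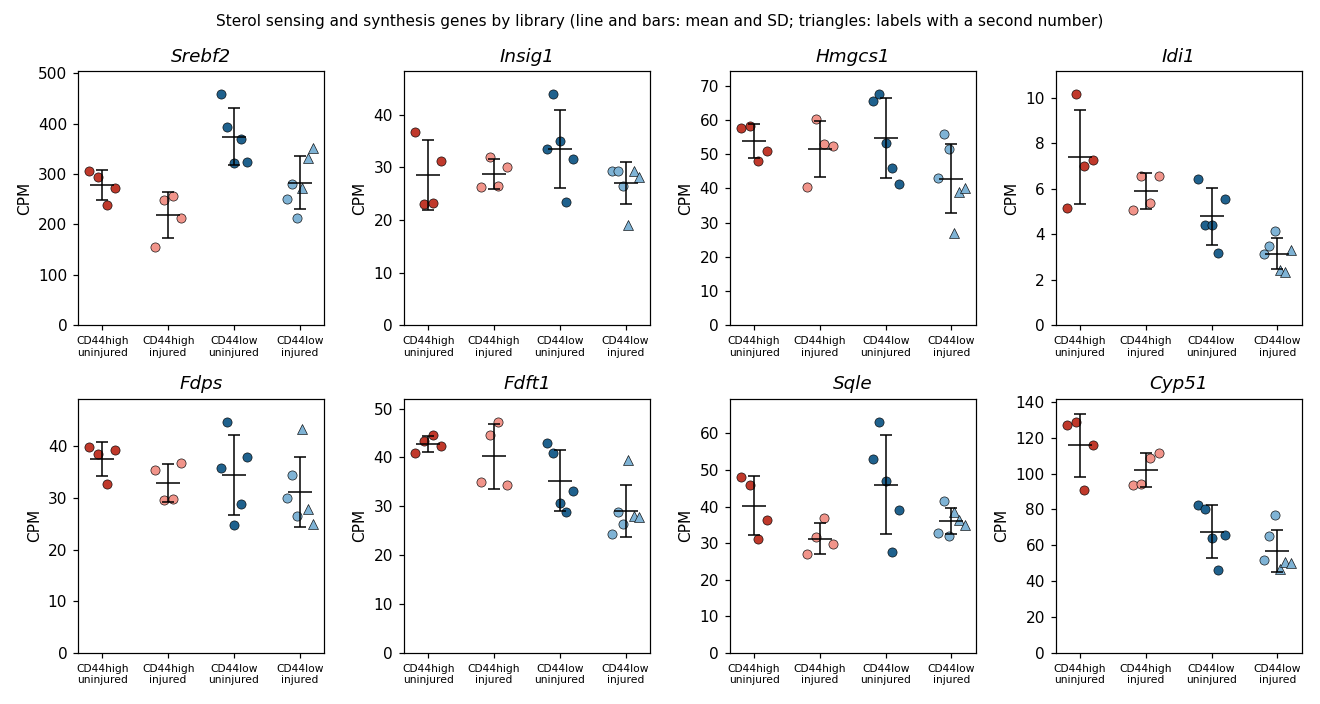
CPM (read count relative to library size, vertical axis from 0) of each gene in each of the 19 libraries by group, with the mean and SD in black and the 3 CD44low injured libraries with a second number as triangles. The CD44high libraries of Cyp51 (90.9 to 129 CPM) all lie above the CD44low ones (46.1 to 82.4 CPM), while Sqle, Fdps and Insig1 overlap across the groups.

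The first question was whether CD44high and CD44low Tregs of uninjured mice differ in these genes. Cyp51 was 1.71-fold higher and Srebf2 was lower, by 25.7%, in CD44high than in CD44low Tregs, and the other 6 genes did not pass the test. That is 2 of 8 genes called at an adjusted p under 0.05 (edgeR quasi-likelihood test, Benjamini-Hochberg adjustment over 11464 genes), where 46.1% of all tested genes were called, 24.7% higher and 21.3% lower. The share of the 8 genes was thus below that of all genes. The median difference was 0.05 on the log2 scale over the 8 genes and 0.009 over all genes tested.

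Cyp51 removes the methyl group at the start of the sterol-trimming steps. It was read at 127, 129, 90.9 and 116 CPM in CD44high uninjured Tregs and at 82.4, 80.0, 64.2, 46.1 and 65.8 CPM in CD44low uninjured Tregs. The groups did not overlap, the lowest CD44high library lying above the highest CD44low one. Non-overlapping groups were found for 40.7% of all tested genes in this comparison. The fitted difference was 0.77 on the log2 scale (SE 0.161, 95% interval 0.44 to 1.11, adjusted p = 0.000425 by edgeR). Cyp51 shares 166 exon bases with Akap9 on the opposite strand in the GENCODE annotation, and no source used here states whether the counting used strand. Akap9 had means of 75.3 CPM in CD44low and 56.9 in CD44high uninjured Tregs, and its part in the Cyp51 counts was not tested.

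Srebf2 was read at 307, 293, 239 and 272 CPM in CD44high uninjured Tregs and at 459, 394, 321, 371 and 325 CPM in CD44low uninjured Tregs. Again the groups did not overlap, here with every CD44low library above the CD44high ones. The difference was -0.43 on the log2 scale (SE 0.151, 95% interval -0.74 to -0.12, adjusted p = 0.0230 by edgeR). This call rested on single libraries. It was lost without CD44high uninjured library 4 (-0.36, adjusted p = 0.0836) and without CD44low uninjured library 1 (-0.35, adjusted p = 0.0655). Insig1, which retains the SREBP precursor, was read at 36.7, 23.1, 23.2 and 31.2 CPM in CD44high and at 33.5, 44.0, 34.9, 23.4 and 31.6 CPM in CD44low uninjured Tregs, with overlap and with a difference of -0.23 (95% interval -0.60 to 0.14, adjusted p = 0.308).

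Of the remaining enzymes, Idi1 and Fdft1 had the larger positive differences. Idi1, the isomerase that readies the isoprenoid units for joining, was read at 5.17, 10.2, 7.01 and 7.25 CPM in CD44high and at 6.41, 4.41, 4.40, 3.16 and 5.57 CPM in CD44low uninjured Tregs. Its highest CD44low library lay above its lowest CD44high one, and the difference of 0.63 (95% interval 0.07 to 1.19) had an adjusted p of 0.0627. Idi1 passed the threshold without CD44high uninjured library 2 (adjusted p = 0.0377) or without CD44low uninjured library 1 (adjusted p = 0.0364). Its counts were small, at 13 to 62 reads a library over all 19. Fdft1, squalene synthase, was read at 40.8, 43.4, 44.5 and 42.3 CPM in CD44high and at 43.0, 41.0, 30.7, 28.8 and 33.1 CPM in CD44low uninjured Tregs. In this gene 2 of the CD44low libraries reached the CD44high range, and the difference was 0.28 (95% interval -0.04 to 0.60, adjusted p = 0.148).

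Hmgcs1, Fdps and Sqle overlapped widely between CD44high and CD44low uninjured Tregs. Hmgcs1, the synthase of an early step, ranged from 48.0 to 58.2 CPM in CD44high and from 41.2 to 67.6 CPM in CD44low Tregs, and its difference of -0.03 had a 95% interval of -0.40 to 0.34. Sqle, the epoxidase that acts on squalene, ranged from 31.0 to 48.0 CPM in CD44high and from 27.6 to 63.2 CPM in CD44low Tregs, a difference of -0.19 (95% interval -0.57 to 0.19). Fdps ranged from 32.7 to 39.8 CPM and from 24.8 to 44.7 CPM, a difference of 0.13 (95% interval -0.23 to 0.48). In all 3 genes the CD44high range lay inside the CD44low range, and the CD44low libraries were the more spread. A change of the size seen for Cyp51 lies outside each of these 3 intervals. Fdps shares 1124 exon bases with another annotated model on its strand, and Hmgcs1 and Idi1 share 557 and 323 with models on the other strand, which were not analysed here.

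In injured mice the same question gave 4 of 8 genes called: Cyp51, Idi1 and Fdft1 were higher in CD44high than in CD44low Tregs, and Srebf2 was lower. Of all tested genes 37.4% were called, 20.1% higher and 17.2% lower, so the share of the 8 was near the background. The median difference of the 8 was 0.178 against 0 over all genes tested. Cyp51 was 1.79-fold and Idi1 1.86-fold higher, and Fdft1 was 38.7% higher. Srebf2 was 22.8% lower by the same measure.

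Cyp51 was read at 93.9, 94.0, 109 and 112 CPM in CD44high injured Tregs, and at 47.1 (lowest), 51.2 (median) and 77.0 CPM (highest) in the 6 CD44low injured libraries. The groups stayed apart, as they did for 24.8% of all tested genes, and the difference was 0.84 (SE 0.154, 95% interval 0.52 to 1.16, adjusted p = 0.000136 by edgeR). The Cyp51 call at an adjusted p under 0.05 held in all 27 alternatives tried for each of the CD44 comparisons. Idi1 was read at 5.05, 6.57, 5.39 and 6.55 CPM in CD44high injured Tregs, and from 2.34 to 4.14 with a median of 3.21 CPM in CD44low injured Tregs. These groups did not overlap either, and the difference was 0.90 (SE 0.265, 95% interval 0.35 to 1.45, adjusted p = 0.00982). Without the 3 CD44low libraries that carry a second number it was 0.71, with an adjusted p of 0.0945, and with a block on the label number within injured and within uninjured mice it was 0.83 (adjusted p = 0.0742).

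Fdft1 was read at 34.9, 44.6, 47.3 and 34.3 CPM in CD44high injured Tregs, and from 24.3 to 39.5 with a median of 27.9 CPM in CD44low injured Tregs. A single CD44low library, 1_2, reached into the CD44high range. The difference was 0.47 (SE 0.148, 95% interval 0.17 to 0.78, adjusted p = 0.0144), and it lost the threshold without CD44high injured library 4 (0.39, adjusted p = 0.0694). Fdft1 shares 774 exon bases with Ctsb, a lysosomal protease gene on the opposite strand. Ctsb was higher in CD44high Tregs too, by 1.02 in uninjured and 0.77 on the log2 scale in injured mice (adjusted p = 7.785e-08 and 3.516e-06), and its part in the Fdft1 counts was not tested.

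Srebf2 was read at 156, 249, 256 and 213 CPM in CD44high injured Tregs, and from 212 to 352 with a median of 276 CPM in CD44low injured Tregs. The groups overlapped, with a difference of -0.37 (SE 0.145, 95% interval -0.67 to -0.07, adjusted p = 0.0467). The lowest value was that of CD44high injured library 2, and without it the difference was -0.27 with an adjusted p of 0.161. Leaving out CD44high injured library 5, or CD44low injured library 1_2, 4_2 or 5_2, also moved the adjusted p above the threshold, to between 0.0503 and 0.102. Without the 3 libraries with a second number the difference was -0.18 (adjusted p = 0.401). The 4 genes that did not pass had differences of 0.27 (Hmgcs1, 95% interval -0.09 to 0.62), 0.09 (Insig1, -0.26 to 0.44), 0.08 (Fdps, -0.26 to 0.42) and -0.20 (Sqle, -0.57 to 0.16).

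**Figure D2:**
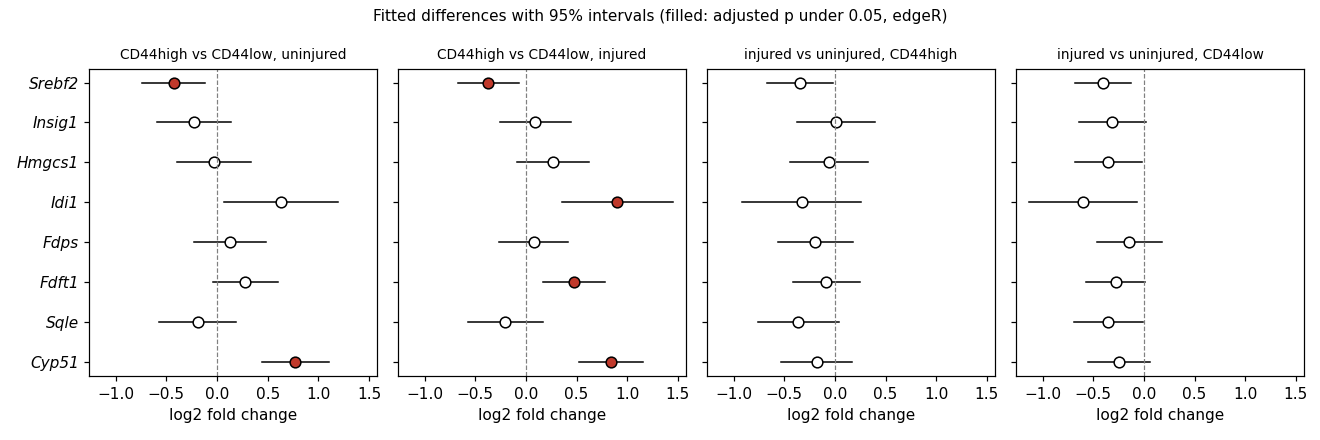
Fitted log2 fold change (horizontal axis) of each gene with its 95% interval in the 4 comparisons of groups, filled where the adjusted p was under 0.05 by edgeR. Cyp51 and Srebf2 are filled in both CD44 comparisons, Idi1 and Fdft1 in injured mice, and none in either comparison of injured with uninjured mice.

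The next question was whether injury moved these genes within a subset. In CD44high Tregs, 0 of 8 were called by edgeR, where 2.38% of all tested genes were (1.06% higher and 1.33% lower), and 1 of 8, Srebf2, had an unadjusted p under 0.05. Among all 11464 tested genes, 1736 had an unadjusted p under 0.05 by edgeR here. DESeq2 also called 0 of 8. The fitted difference was negative for 7 of the 8 genes, with a median of -0.187 against -0.021 over all tested genes. Srebf2, with the values given above of 239 to 307 CPM uninjured and 156 to 256 CPM injured, had a difference of -0.35 (95% interval -0.67 to -0.02, adjusted p = 0.299). Sqle was read at 48.0, 45.8, 31.0 and 36.3 CPM in uninjured and at 27.0, 31.7, 36.8 and 29.7 CPM in injured CD44high Tregs. The ranges overlapped, with a difference of -0.36 (95% interval -0.76 to 0.04, adjusted p = 0.397). Differences of the other 6 ran from -0.33 (Idi1) to 0.01 (Insig1). Injured and uninjured ranges overlapped for all 8 genes in CD44high Tregs, where 13.3% of all tested genes had ranges apart.

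Values of the other genes after injury in CD44high Tregs were as follows. Hmgcs1 was read at 40.5, 60.2, 53.0 and 52.4 CPM in CD44high injured Tregs, with a mean of 51.5 ± 8.14 CPM (SD, n = 4) against 53.7 ± 4.98 CPM (SD, n = 4) uninjured. Fdps was read at 35.3, 29.7, 29.8 and 36.8 CPM, with means of 32.9 ± 3.73 CPM injured and 37.6 ± 3.29 CPM uninjured. Insig1 was read at 26.3, 32.0, 26.4 and 30.1 CPM, with means of 28.7 ± 2.82 and 28.6 ± 6.66 CPM. For Fdps the 95% interval of the injury difference was -0.57 to 0.18, for Insig1 -0.38 to 0.39, and for Hmgcs1 -0.44 to 0.33. Cyp51 had means of 102 ± 9.47 CPM injured and 116 ± 17.5 CPM uninjured (difference -0.18, 95% interval -0.53 to 0.17), and Fdft1 of 40.3 ± 6.64 and 42.8 ± 1.58 CPM (-0.08, -0.42 to 0.25).

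In CD44low Tregs 0 of 8 genes were called by edgeR and by DESeq2, where edgeR called 7.6% of all tested genes, 4.24% higher and 3.36% lower. All 8 fitted differences were negative, with a median of -0.331 against 0.008 over all tested genes, and 4 genes (Hmgcs1, Sqle, Idi1 and Srebf2) had an unadjusted p under 0.05. Of all 11464 tested genes, 2986 had an unadjusted p under 0.05 by edgeR in this comparison. Every one of the 8 adjusted p-values was above the threshold, so no gene is called lower. Srebf2 came nearest, from 321 to 459 CPM in uninjured and from 212 to 352 CPM in injured libraries, with a difference of -0.40 (SE 0.135, 95% interval -0.68 to -0.12, adjusted p = 0.0644). It was called without the 3 libraries with a second number (-0.59, adjusted p = 0.0110), without CD44low injured library 5_2 alone (-0.45, adjusted p = 0.0240), and without CD44high injured library 2 (-0.38, adjusted p = 0.0462). Idi1 had the largest negative estimate, -0.60 (95% interval -1.13 to -0.07, adjusted p = 0.144), with 3.16 to 6.41 CPM in uninjured and 2.34 to 4.14 CPM in injured libraries. Hmgcs1 ranged from 41.2 to 67.6 CPM in uninjured and from 27.1 to 55.8 CPM in injured CD44low Tregs, a difference of -0.35 (95% interval -0.68 to -0.02, adjusted p = 0.167).

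Sqle (-0.35), Insig1 (-0.31), Fdft1 (-0.28), Cyp51 (-0.25) and Fdps (-0.14) had negative estimates in CD44low Tregs as well. Fdps ranged from 24.9 to 43.3 CPM (median 28.9) in injured CD44low Tregs, Insig1 from 19.1 to 29.3 CPM (median 28.7), and Sqle from 32.0 to 41.6 CPM (median 35.6). Ranges of injured and uninjured libraries overlapped for all 8 genes in this subset, and 4.68% of all tested genes had ranges apart. Summed macrophage and dendritic cell markers had means of 66.7 CPM in injured and 29.3 CPM in uninjured CD44low libraries, and neutrophil markers 6.97 and 0.401 CPM. Of the 6 neutrophil genes, 3 had no reads in the injured and 3 had none in the uninjured CD44low group. The macrophage and dendritic cell mean of injured libraries was raised by library 5, at 152 CPM, and the median of that group was 48.85 CPM. The neutrophil mean of injured libraries rested on library 2, at 30.1 CPM, and was 2.33 CPM without it, an alternative chosen after seeing the data. In CD44high libraries the macrophage and dendritic cell means were 143.9 CPM injured and 100.8 CPM uninjured. The neutrophil means there were 8.98 and 0.170 CPM. The part of these cells in the estimates of either subset was not tested.

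The difference between the injury effects in CD44high and CD44low Tregs was tested as an interaction, and 0 of 8 genes passed by edgeR, with 0 at an unadjusted p under 0.05 and 0 by DESeq2, where 0.645% of all tested genes were called by edgeR (0.192% positive and 0.454% negative). An unadjusted p under 0.05 by edgeR was found for 1247 of the 11464 tested genes. Estimates (injury effect in CD44high minus that in CD44low) ran from -0.05 for Fdps to 0.32 for Insig1. Their 95% intervals were wide, from -0.19 to 0.83 for Insig1 and from -0.52 to 1.06 for Idi1. A difference between the injury effects was thus not detected for these 8 genes.

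Apart from the groups, libraries of the same group varied together in several genes. CD44low uninjured library 4 was below its group mean in 7 of 8 genes and lowest in 5, while library 1 of that group was below in 0 and library 2 in 1. CD44high injured library 2 was below its mean in 7 genes and lowest in 6, and CD44high uninjured library 4 in 7 and lowest in 5. With group means removed, 23 of the 28 gene pairs had a positive Pearson r of log2 CPM across the 19 libraries (median 0.279, range -0.136 to 0.702, highest for Hmgcs1 with Cyp51). Without removing them 26 of 28 were positive (range -0.319, Cyp51 with Srebf2, to 0.863, Idi1 with Cyp51). These are descriptions: libraries share group, total count and normalization.

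**Figure D3:**
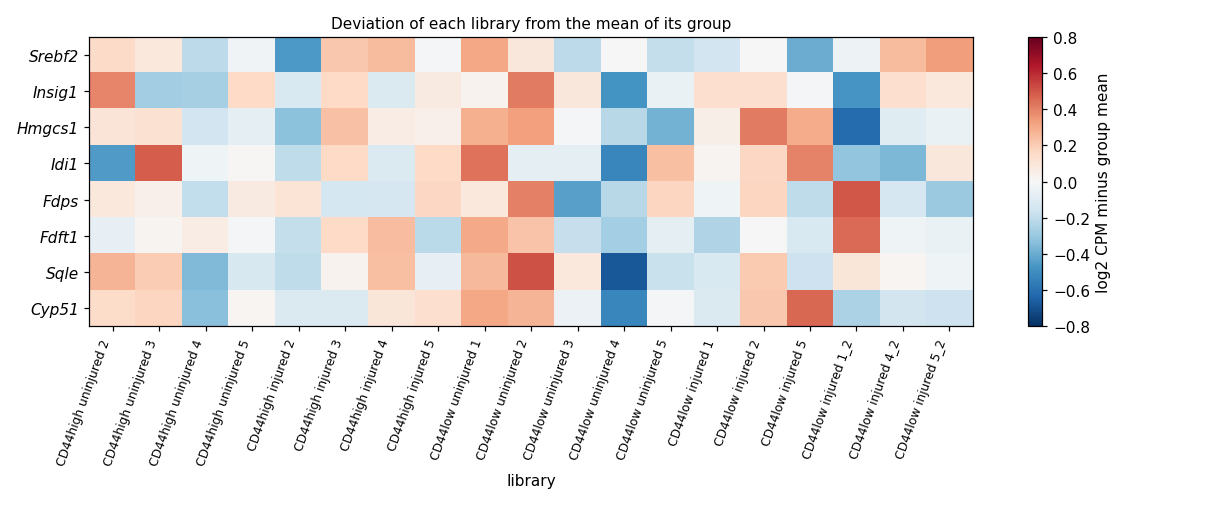
Log2 CPM of each gene (rows) in each library (columns) minus the mean of its group, red above and blue below. CD44low uninjured library 4 is blue in 7 of 8 genes and CD44high injured library 2 in 7 of 8, and CD44low injured library 1_2 is red for Fdps and Fdft1 and blue for Hmgcs1 and Insig1.

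The genes most like the set were found by Pearson r between their log2 CPM and the mean z-score of the 8 genes over the 19 libraries. They were 1810013L24Rik (0.847), Tmem63a (0.837), Abcb10 (0.832), Sun1 (0.806), Naa40 (0.806), Eftud2 (0.796), Spryd3 (0.781) and Nt5c2 (0.778). None of these 8 is in the pathway lists used here. With group means removed the highest r was that of Mst1 (0.864).

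The other genes of the pathway gave the surroundings. Of 14 further sterol synthesis enzymes, all tested, 6 were higher and 1 was lower in CD44high than in CD44low uninjured Tregs, and 3 were higher and 0 lower in injured mice. Of all tested genes, 46.1% were called in the uninjured comparison (24.7% higher and 21.3% lower) and 37.4% in the injured one (20.1% higher and 17.2% lower). The 7 of 14 called in uninjured mice was thus near the share of all genes, and the 3 of 14 in injured mice was below it. Ebp, the sterol isomerase, had means of 160 and 81.6 CPM in CD44high and CD44low uninjured Tregs (0.97 on the log2 scale, adjusted p = 1.591e-06) and 176 and 104 CPM in injured ones (0.76, adjusted p = 2.972e-05). Pmvk, the kinase that makes mevalonate pyrophosphate, was higher in CD44high Tregs by 0.96 and 0.88 in the same comparisons (adjusted p = 0.00139 and 0.00242). Mvd, the decarboxylase after it, was higher in CD44high Tregs of uninjured mice by 0.63 (adjusted p = 0.00917). Erg28, a scaffold of the demethylation complex, was higher by 0.41 in uninjured and 0.51 in injured mice (adjusted p = 0.0137 and 0.00263). The enzyme that was lower was Tm7sf2, a sterol reductase (-0.84, adjusted p = 0.0445), named after its values were seen as the only called gene of that direction. For injury within CD44high Tregs, 0 of 14 were called, where 2.38% of all tested genes were.

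**Figure D4:**
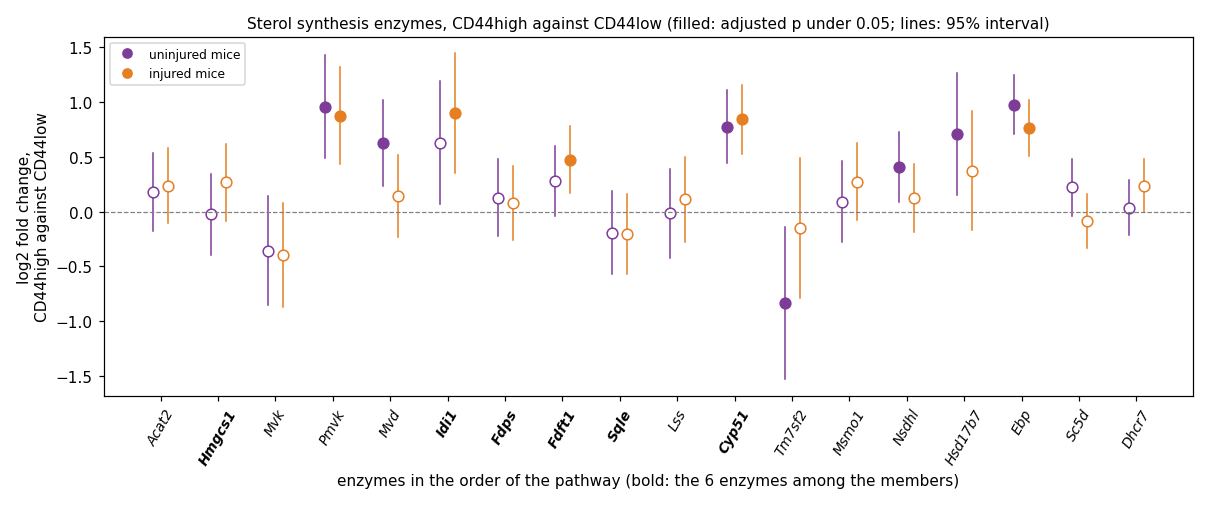
Log2 fold change of CD44high against CD44low Tregs (vertical axis, with 95% intervals) for synthesis enzymes in pathway order, in uninjured and injured mice, filled where the adjusted p was under 0.05. Pmvk, Cyp51 and Ebp are filled in both, while the intervals of Hmgcs1, Fdps and Sqle include 0 in both.

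Sterol sensing and SREBP processing genes (9 tested) showed 0 called in uninjured mice and 1 in injured mice, Srebf1, the gene of the related factor SREBP1, which was lower in CD44high Tregs (-0.39, adjusted p = 0.0197). For uptake, transport and storage, 3 genes were higher and 3 lower of 11 tested in uninjured mice, and 3 higher and 4 lower in injured mice. Beside both lists, 46.1% of all tested genes were called in the uninjured and 37.4% in the injured comparison. Soat1, which esterifies cholesterol for storage, had means of 109 and 53.7 CPM in CD44high and CD44low uninjured Tregs (1.02, adjusted p = 8.542e-07). In injured mice it was higher in CD44high than in CD44low Tregs by 0.91 (adjusted p = 2.687e-06). Stard4, a sterol carrier, was higher in CD44high Tregs by 0.53 in uninjured (adjusted p = 0.03975) and by 1.07 in injured mice (adjusted p = 0.000151). Lipa, the lysosomal acid lipase, was lower in CD44high than in CD44low Tregs of uninjured mice (-0.70, adjusted p = 2.245e-05 by edgeR). It was also lower in those of injured mice (-0.34, adjusted p = 0.0153 by edgeR). Lipa was the gene of this list called higher after injury in CD44high Tregs (0.55, adjusted p = 0.0105 by edgeR), where 2.38% of all tested genes were called. Mylip, an E3 ubiquitin ligase gene, was lower in CD44high than in CD44low Tregs of uninjured and of injured mice (-0.74 and -0.59, adjusted p = 0.000611 and 0.00382).

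Of 4 oxysterol response and efflux genes tested, 2 were lower in CD44high uninjured Tregs, both encoding sterol exporters: Abca1 (-0.998, adjusted p = 0.0169) and Abcg1 (-0.33, adjusted p = 0.0491). In that comparison 24.7% of all tested genes were called higher and 21.3% lower, the background for each list here in uninjured mice. Between CD44high and CD44low Tregs of injured mice, 37.4% of all tested genes were called. For injury, 7.6% of all tested genes were called in CD44low Tregs and 2.38% in CD44high Tregs. Abcg1 was lower after injury in CD44low Tregs (-0.56, adjusted p = 0.00873), and Nr1h2, encoding a liver X receptor, was higher there (0.29, adjusted p = 0.0475). In CD44high Tregs 0 of the 4 were called after injury, but the Abcg1 mean was also lower, at 143.9 CPM uninjured and 99.65 CPM injured. In the isoprenoid branch 4 of 11 genes were lower and 0 higher in uninjured CD44high Tregs, led by Fntb, the beta subunit of farnesyltransferase (-1.57, adjusted p = 5.884e-07) and Coq2, of ubiquinone synthesis (-0.53, adjusted p = 0.00191). Both were also lower in injured CD44high Tregs (-1.40 and -0.68). For fatty acid synthesis, 3 of 10 were higher and 4 lower in uninjured mice, with Acss2, which makes acetyl-CoA from acetate, lower in CD44high Tregs (-0.73, adjusted p = 1.072e-05) and lower again after injury within CD44high Tregs (-0.74, adjusted p = 0.000783).

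Beside these counts stood the proliferation genes, of which 17 of 17 were higher in CD44high Tregs in both kinds of mice. Of all tested genes, 24.7% were higher in uninjured and 20.1% in injured mice. The proliferation genes had median differences of 4.49 and 3.43 on the log2 scale. The differences of the 8 cholesterol genes, between -0.43 and 0.90, are set beside these without a test. In sorted bulk RNA, fewer cells that make a transcript and less of it per cell cannot be told apart, and this holds for each difference given here.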

How the data were processed

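RNA-seq libraries of sorted lymph node Tregs were made with the SMART-Seq v4 and Swift 2S kits. Per the labels and the study's methods, the authors ran the VIPER workflow with STAR 2.5 and bcl2fastq 2.18, and deposited raw read counts per gene symbol. The submitters' processing notes list the mm9 and mm10 builds without a role, and no source used here names the annotation or the strand setting. The deposited counts of all 19 samples were used, with total counts of 5582234 to 9433610 that set the precision, and p-values cover spread between samples only.

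Counts were tested with edgeR 4.0.16 (R 4.3.3, limma 3.58.1) by the quasi-likelihood test, two-sided, with TMM factors, filterByExpr at a minimum count of 10, and 1 mean per group over 19 samples. Benjamini-Hochberg adjustment was over 11464 genes and the threshold was 0.05. Intervals are 95%. Log2 CPM used a prior count of 2. DESeq2 1.42.0 was an alternative, as were RLE scaling, no filter, the compared groups alone, blocks on the label number, summing or leaving out libraries with a second number, a stricter threshold, and each library left out. The test was checked on simulated counts. Exon lengths and overlaps are from GENCODE vM21, and promoters from RefSeq (GRCm38.p6). Figures were drawn with matplotlib 3.10.9 (Python 3.11.15).

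The 8 genes and the other lists were chosen with earlier results of these data known. All 8 are named in every comparison. Of the other lists, counts are given with at most 4 called genes of smallest p by name in each comparison. Tm7sf2, the Stard4 difference in uninjured mice, the Lipa difference in injured mice and the Abcg1 means in CD44high Tregs were added after their values were seen. The 8 genes most like the set are named. Results of some genes are not reported here.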

Additional observations from a re-analysis of the deposited data

Results flagged for a closer look

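Of 32 sets of values (8 genes in each of 4 groups), 2 held a library far from the others by Dixon's test, and chance alone flags about 1 in 20 sets. Both lie in CD44low injured library 1_2, whose label carries a second number. Fdft1 was highest there, at 39.47 CPM, with the next library at 28.77. Insig1 was lowest there, at 19.13 CPM, with the next at 26.39. The cause was not tested.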

How the results depend on the processing

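Over 1048 recomputed values of 40 single-gene results, 996 kept their direction and side of the threshold, 15 lost the threshold, 5 gained it and 32 changed sign, none of the sign changes being in a difference that was called. Cyp51 stayed called in both CD44 comparisons under every alternative at the 0.05 threshold, at 0.656 to 0.873 in uninjured and 0.659 to 0.935 in injured mice. At p under 1e-06 and a 2-fold change, 0 of the 8 genes were called in either CD44 comparison. Without the 3 libraries with a second number, 2 genes were called between CD44high and CD44low Tregs of injured mice and 1 between injured and uninjured CD44low Tregs. Leaving out single libraries gave 1 to 3 called genes in the uninjured CD44 comparison, 3 to 4 in the injured one, 0 to 0 for injury in CD44high, 0 to 1 for injury in CD44low and 0 to 0 for the interaction.

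The label numbers were not taken to pair samples, as the study's methods name no pairing. Same-numbered CD44high and CD44low libraries had deviations correlated at -0.007 to 0.119 in uninjured mice (1 of 4 pairs over 0.1) and -0.054 to 0.167 in injured mice (3 of 4). Different-numbered libraries of the fractions were not compared, so these correlations cannot tell whether the fractions came from the same mice. With a replicate block within injured and within uninjured mice, 1 gene was called in the uninjured CD44 comparison and 2 in the injured one, and Hmgcs1 (uninjured) was 0.066 and Insig1 (injured) -0.033, both with the opposite sign. With the replicate block on the number in the label, 2 and 3 genes were called, and the Fdps interaction was 0.015. Without the 3 libraries with a second number, the interaction of Sqle was 0.011 and that of Cyp51 -0.114. Sign changes also came from leaving out single libraries, which gave -0.122 to 0.051 for Hmgcs1 in the uninjured CD44 comparison, and -0.139 to 0.052 for Hmgcs1 and -0.078 to 0.163 for Insig1 after injury in CD44high Tregs. For the interaction these ranges were -0.158 to 0.119 (Sqle), -0.165 to 0.064 (Fdps), -0.031 to 0.171 (Cyp51) and -0.039 to 0.174 (Srebf2). The cause of these changes was not tested.

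The Srebf2 call in injured mice was also lost with the compared groups alone (adjusted p = 0.0779) and with the label-number block (0.0903), and those of Fdft1 (0.0661) and Idi1 (0.0742) with the block within injured and within uninjured mice, as was the Srebf2 call in uninjured mice (0.0571). RLE scaling left all 8 signs as they were in every comparison. Counts of all genes called moved by over 1.5 times after injury: 273 in CD44high Tregs against 476 by DESeq2, 601 with the compared groups alone and 581 without the 3 libraries, and 871 in CD44low Tregs against 1451, 463 and 1748. The interaction had 74, against 217 by DESeq2 and 314 without the 3 libraries. Idi1, with 13 to 62 reads a library, is the gene in this set most limited by depth.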
